A study of Mus musculus with 4 samples.

Results

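The 10 genes described here encode the core of the machinery that releases neurotransmitter from nerve terminals: Syn1, Syn2, Snap25, Stx1a, Cplx1, Cplx2, Vamp1, Vamp2, Syp and Sv2b. They were taken by name from the 32285 genes of a spatial expression table, and all 10 were found in it. The table came from Visium slides, on which a frozen section lies on a grid of barcoded spots and each spot, which can hold several cells of different types, is read as unique molecular identifier (UMI) counts. It held 4 brain libraries from female C57BL/6 mice of the NIA aged rodent colony, 1 library for each pairing of age with gavage. Aged mice (18 to 20 months) given ethanol, aged mice given vehicle, young mice (3 to 4 months) given ethanol and young mice given vehicle were each represented by 1 coronal section of the left hemisphere, 10 µm thick. Ethanol was given into the stomach at 3 g/kg and vehicle was water. Every group, vehicle included, received 10 gavages over 18 days, and brains were taken 18 hours after the last one, with the meninges removed. The labels name no altered gene in any group. Where values of all 4 libraries are listed without names, they are those of aged ethanol, aged vehicle, young ethanol and young vehicle.

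Release begins when a vesicle protein (VAMP, also called synaptobrevin) zips together with 2 proteins of the terminal's membrane, syntaxin 1 and SNAP-25, into a SNARE complex. Complexins bind that complex and hold or promote fusion until calcium arrives, synapsins tether the reserve of vesicles to each other and to the cytoskeleton, and synaptophysin and SV2 are integral proteins of the vesicle membrane. The proteins work in axon terminals, whereas most of the mRNA lies in the cell body. A spot is therefore read here mainly as the neurons whose bodies it covers, and mRNA in processes that cross it was not told apart. Several of these proteins come as pairs of close relatives that neurons use in different proportions, and the pairs Cplx1 and Cplx2, Vamp1 and Vamp2, and Syn1 and Syn2 are all among the 10.

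After spots under 500 UMIs were left out, 2642 of 2648, 2703 of 2784, 2881 of 2889 and 2716 of 2743 spots remained, with 48131900, 45995677, 58305713 and 52807139 UMIs in the 4 libraries. Levels are given as counts per 1000000 UMIs of the same region and library (CPM). Mitochondrial transcripts made up 16.5% of UMIs in the aged ethanol library and 13.6% to 14.3% in the others. Spots were grouped by expression with the 10 genes kept out of the grouping, and 8 of the 24 groups were named after the brain region whose markers led them. The leading genes included Spink8 and Fibcd1 for CA1, Homer3 for CA3, C1ql2 and Prox1 for dentate granule, Lamp5 for upper neocortex, Fezf2 for deep neocortex, Prkcd and Tnnt1 for thalamus, Hcrt and Pmch for hypothalamus, and Opalin for white matter. By library, these regions held 36, 30, 31 and 31 spots (CA1), 23, 44, 23 and 34 (CA3), 38, 30, 35 and 25 (dentate granule), 159, 205, 272 and 290 (upper neocortex), 158, 140, 198 and 197 (deep neocortex), 475, 209, 471 and 197 (thalamus), 234, 232, 260 and 171 (hypothalamus) and 305, 273, 284 and 252 (white matter). For CA3 and deep neocortex, Homer3 and Fezf2 were the only markers of their lists among the group's top 10 genes by fold. The labels give the same plane for all 4 sections (bregma -2.0 to -2.2 mm). Thalamus took 18.0% and 16.3% of spots in the aged and young ethanol libraries, against 7.73% and 7.25% in the aged and young vehicle libraries. All 10 neuron markers (Rbfox3, Map2, Nefl and others) were detected in every region, with a summed level of 1213 to 1666 CPM in white matter and at least 3688 CPM in the other 7 regions. Libraries shared barcodes (1205 of 4187 were in all 4), as the slide format uses 1 barcode set, and the letter that follows each barcode separated them. The 4 libraries are separate sections with no replicate within a pairing, so differences between regions were tested across the 4 libraries. The p-values rest on the spread between these 4 sections, pooled in part over genes. In CA3 against CA1 and dentate granule against CA3 it was pooled wholly, so a gene's own spread had no weight there. Differences between ages or gavages were not tested. Regions were drawn from other genes of the same spots, which the p-values do not take into account.

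The genes lie on 7 chromosomes (GRCm38.p6, RefSeq annotation). Stx1a (chr5:135023482-135051100) and Cplx1 (chr5:108518554-108550027) share chromosome 5, Syn2 (chr6:115134902-115282626) and Vamp1 (chr6:125215581-125222306) share chromosome 6, and Syn1 (chrX:20860511-20920918) and Syp (chrX:7638580-7653256) share the X chromosome. Snap25 is at chr2:136713439-136782428, Sv2b at chr7:75114894-75309262, Vamp2 at chr11:69088528-69092381 and Cplx2 at chr13:54301964-54383923. Annotated genes overlap Syn1 (Araf, Timp1 and Mir5617), Syn2 (Timp4 and Gm18325), Snap25 (Gm32659), Cplx2 (LOC115488208 and Gm52068) and Sv2b (1500012K07Rik), and how the counting treated reads in such overlaps is not given in the sources used here. Promoter windows, 250 bases before to 50 after a start, were listed by RefSeq for 8 of the 10 genes and not used here for Snap25 and Vamp2. Those of 4 genes that diverged in the thalamus are shown 5′ to 3′: Cplx1 and Vamp1, which were highest there among the 8 regions, and Cplx2 and Stx1a, which were low there. Capitals mark GGGCGG (a GC box) and TGACG (the core of a cyclic AMP response element) on either strand; no base fell in both motifs.
Cplx1, chr5:108549978-108550277, minus strand: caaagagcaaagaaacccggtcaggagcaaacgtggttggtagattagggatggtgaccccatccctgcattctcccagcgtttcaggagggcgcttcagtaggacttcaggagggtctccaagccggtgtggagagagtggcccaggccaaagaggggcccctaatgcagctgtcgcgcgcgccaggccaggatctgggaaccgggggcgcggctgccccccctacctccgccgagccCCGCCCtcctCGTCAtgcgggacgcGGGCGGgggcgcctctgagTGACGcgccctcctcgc
Vamp1, chr6:125215331-125215630, plus strand: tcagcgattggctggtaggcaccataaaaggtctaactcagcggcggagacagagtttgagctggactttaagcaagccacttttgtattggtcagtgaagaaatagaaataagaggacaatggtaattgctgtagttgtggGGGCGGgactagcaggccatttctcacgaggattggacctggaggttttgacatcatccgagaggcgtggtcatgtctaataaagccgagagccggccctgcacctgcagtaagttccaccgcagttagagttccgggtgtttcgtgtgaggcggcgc
Cplx2, chr13:54302306-54302605, plus strand: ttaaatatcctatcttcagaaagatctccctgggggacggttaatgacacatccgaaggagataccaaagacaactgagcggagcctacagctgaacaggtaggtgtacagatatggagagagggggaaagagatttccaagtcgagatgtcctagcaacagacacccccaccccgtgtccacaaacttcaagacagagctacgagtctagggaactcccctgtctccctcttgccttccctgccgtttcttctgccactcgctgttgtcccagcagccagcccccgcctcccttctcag
Stx1a, chr5:135023232-135023531, plus strand: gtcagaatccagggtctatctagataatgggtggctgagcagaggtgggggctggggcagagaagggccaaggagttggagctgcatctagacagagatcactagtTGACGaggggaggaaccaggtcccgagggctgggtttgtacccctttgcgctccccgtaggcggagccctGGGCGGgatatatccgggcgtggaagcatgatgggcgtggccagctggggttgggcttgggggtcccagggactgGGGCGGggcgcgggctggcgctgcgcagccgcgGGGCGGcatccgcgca
The Cplx1 window held 2 GC boxes and 2 TGACG matches, that of Vamp1 1 and 0, that of Cplx2 0 and 0, and that of Stx1a 3 and 1. Among all 32851 RefSeq promoter windows of that length, 35.7% held a GC box and 20.8% a TGACG match. G and C made up 67% of the Cplx1 window, 51.7% of that of Vamp1, 53.3% of that of Cplx2 and 66.3% of that of Stx1a. The Cplx2 window lies inside the annotated gene, which begins at 54301964, and so belongs to an internal start. Those of Cplx1, Vamp1 and Stx1a span the outermost annotated start of their gene. As the windows are unlike, shares and motif counts were not compared between the pair high in the thalamus and the pair low there.

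The 10 genes did not share 1 regional pattern. CA3 was the highest of the 8 regions for 6 of them (Syn1, Syn2, Snap25, Vamp2, Syp and Sv2b), thalamus for Cplx1 and Vamp1, dentate granule for Cplx2 and upper neocortex for Stx1a. White matter was the lowest for Syn1, Syn2, Snap25, Stx1a, Cplx1, Vamp2 and Syp, CA1 for Vamp1, thalamus for Cplx2 and hypothalamus for Sv2b. The ratio of the highest to the lowest region mean was 18.4-fold for Cplx2, 16.1-fold for Stx1a, 13.8-fold for Sv2b, 11-fold for Syn2, 8.45-fold for Snap25, 7.47-fold for Vamp1, 6.68-fold for Syn1, 6.42-fold for Cplx1, 5.01-fold for Syp and 3.21-fold for Vamp2. Levels are read within a gene only, because capture near the 3′ end differs between genes.

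**Figure D1:**
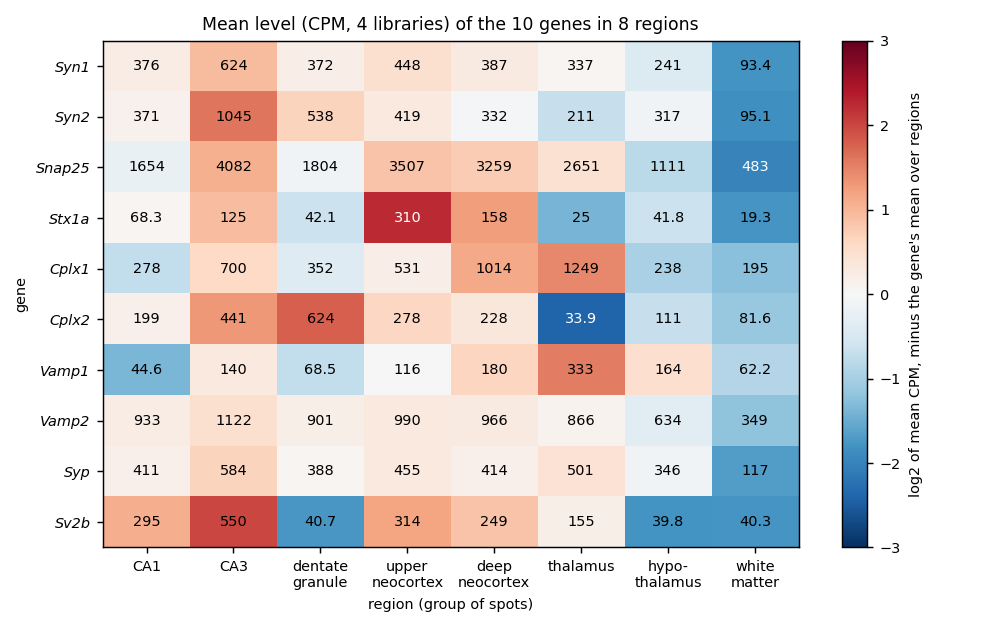
Mean CPM over 4 libraries (number in each cell) of the 10 genes (rows) in 8 regions (columns), coloured by log2 of that mean after subtraction of the gene's mean over regions. Of the rows, 6 peak in the CA3 column, Cplx1 and Vamp1 peak in thalamus at 1249 and 333 CPM, and Cplx2 is lowest there at 33.9 CPM.

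The SNARE genes differed in how evenly they were spread. Vamp2, the main vesicle SNARE of forebrain terminals, had the smallest ratio of highest to lowest mean over the 8 regions (3.21-fold). It had 1122 ± 31 CPM in CA3, 990 ± 82 in upper neocortex, 966 ± 74 in deep neocortex, 933 ± 44 in CA1, 901 ± 35 in dentate granule and 866 ± 80 in thalamus (SD, n = 4 libraries). From upper neocortex to thalamus the libraries' ranges of Vamp2 overlapped from each region to the next. It was lower in hypothalamus (634 ± 56 CPM) and white matter (349 ± 38 CPM). Snap25, a SNARE of the terminal's membrane, had 4082 ± 223 CPM in CA3, 3507 ± 303 in upper neocortex, 3259 ± 181 in deep neocortex, 2651 ± 232 in thalamus, 1804 ± 164 in dentate granule, 1654 ± 114 in CA1, 1111 ± 159 in hypothalamus and 483 ± 33 in white matter. Its libraries overlapped between CA3 and upper neocortex, between the neocortical regions, and between dentate granule and CA1. Stx1a, the syntaxin of the same complex, had a steeper order: 310 ± 39 CPM in upper neocortex, 158 ± 12 in deep neocortex, 125 ± 8.02 in CA3, 68.3 ± 11.7 in CA1, 42.1 ± 9.1 in dentate granule, 41.8 ± 6.3 in hypothalamus, 25.0 ± 5.9 in thalamus and 19.3 ± 4.0 in white matter. Its libraries overlapped only between dentate granule and hypothalamus and between thalamus and white matter, among neighbours in that order.

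Among the vesicle genes, Syn2 and Sv2b were the most uneven. Syn2 had 929, 1112, 1085 and 1055 CPM in CA3, a range above that of every other region. Dentate granule was next at 538 ± 47 CPM, with thalamus (211 ± 31) and white matter (95.1 ± 23.1) at the low end. Syn1, the other synapsin, had 624 ± 64 CPM in CA3 and 448 ± 24 in upper neocortex. Its ranges in deep neocortex (387 ± 23), CA1 (376 ± 29), dentate granule (372 ± 33) and thalamus (337 ± 26) overlapped from each to the next. Sv2b, a vesicle glycoprotein, fell into a high and a low set of regions. Levels of 550 ± 55 CPM in CA3, 314 ± 43 in upper neocortex, 295 ± 65 in CA1, 249 ± 19 in deep neocortex and 155 ± 3.0 in thalamus formed the high set. The low set, 40.7 ± 5.0 in dentate granule, 40.3 ± 11.8 in white matter and 39.8 ± 10.3 CPM in hypothalamus, could not be ordered. Syp, the most abundant integral protein of the vesicle membrane, had 584 ± 41 CPM in CA3, 501 ± 68 in thalamus and 346 ± 33 in hypothalamus. The 4 regions between thalamus and hypothalamus were at 388 to 455 CPM on average, and white matter was at 117 ± 18.

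The complexins and Vamp1 followed other orders. Cplx1 had 1249 ± 69 CPM in thalamus, 1014 ± 39 in deep neocortex, 700.4 ± 21.7 in CA3, 531 ± 13 in upper neocortex, 352 ± 26 in dentate granule, 278 ± 22 in CA1, 238 ± 32 in hypothalamus and 195 ± 52 in white matter. Only the last 3 overlapped from each to the next, so the first 5 places were ordered in all 4 libraries. Cplx2 had 624 ± 94 CPM in dentate granule, 441 ± 56 in CA3, 278 ± 15 in upper neocortex, 228 ± 13 in deep neocortex, 199 ± 16 in CA1, 111 ± 12 in hypothalamus, 81.6 ± 16.8 in white matter and 33.9 ± 8.2 in thalamus. Of its neighbours, hypothalamus and white matter overlapped. Vamp1 had 333 ± 23 CPM in thalamus, clear of all other regions, then 180 ± 31 in deep neocortex, 164 ± 32 in hypothalamus, 139.5 ± 3.6 in CA3 and 116 ± 15 in upper neocortex, which overlapped from each to the next. Its lowest regions, dentate granule (68.5 ± 8.5), white matter (62.2 ± 25.3) and CA1 (44.6 ± 10.3), overlapped in the same way.

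Spots of CA3, whose pyramidal neurons send the Schaffer collaterals to CA1, held more mRNA of the release machinery per UMI than spots of CA1. A spot mixes cells, so here and in every region below, fewer neurons and less mRNA in each neuron cannot be told apart. All 10 genes were higher in CA3 (p adjusted by Benjamini-Hochberg over all genes tested under 0.05 by edgeR's quasi-likelihood test, with library as a block), where 17.8% of the 4615 genes tested, none of them used in the grouping, were higher and 15.9% lower. Of the 10, Syn2, Snap25, Cplx1, Cplx2 and Vamp1 were at least 2-fold higher in each of the 4 libraries, against 1.62% of all genes with 20 UMIs at least 2-fold higher and 2% at least 2-fold lower in each. Snap25 had 4166, 4148, 4258 and 3755 CPM in CA3, against 1677, 1802, 1601 and 1536 CPM in CA1. The regions did not overlap, and the fitted log2 ratio, edgeR's estimate of CA3 over CA1, was 1.37 ± 0.044 (SE). Vamp1 had 143, 140, 141 and 135 CPM in CA3, against 55.5, 48.8, 42.9 and 31.2 CPM in CA1, with a log2 ratio of 1.73 ± 0.12, the largest of the 10. Syn2 followed at 1.57 ± 0.056, Cplx1 at 1.41 ± 0.061 and Cplx2 at 1.22 ± 0.069. Sv2b (0.98 ± 0.062), Stx1a (0.94 ± 0.11), Syn1 (0.80 ± 0.059), Syp (0.58 ± 0.059) and Vamp2 (0.34 ± 0.050) were higher by less. The largest adjusted p of the 10 was that of Vamp2, 3.17e-10 by edgeR.

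The neuron marker list was itself higher in CA3, at 6174 to 6406 CPM, against 4102 to 4315 CPM in CA1, a mean log2 ratio of 0.58. Relative to that list, 7 of the 10 genes were above it in all 4 libraries, Vamp2 was below it in all 4 (-0.31 ± 0.04, SD). Syn1 (0.15 ± 0.21) and Syp (-0.07 ± 0.10) went both ways. Shares over all genes were not computed for counts relative to the neuron list, here and in the comparisons below. Such counts are therefore not read as particular to the 10. White matter markers (Mbp, Mog and others, which took part in the grouping) were also higher in CA3, at 1895 to 2541 CPM, against 914 to 1411 CPM in CA1, and their part in the result was not tested. When counts were scaled by library totals alone, 41.6% of called genes in place of 52.7% were on the higher side, and all 10 genes were still higher in CA3. Of 39 other presynaptic genes, 34 were tested: 23 were higher in CA3, 3 lower and 8 not called, with a median log2 ratio of 0.53, against -0.01 over all genes and 1.10 over the 10. The highest were Rph3a (2.35 ± 0.11), a Rab3 effector on vesicles, Synpr (2.21 ± 0.13), a relative of synaptophysin, and Bsn (1.45 ± 0.075), the active zone scaffold bassoon. The lowest were Doc2b (-3.82 ± 0.25), a calcium sensor for spontaneous release, Rab3c (-0.65 ± 0.092), a vesicle GTPase, and Unc13a (-0.41 ± 0.096), a vesicle priming factor. Doc2b averaged 4.50 ± 2.41 CPM in CA3 and 67.5 ± 7.5 CPM in CA1. All 5 endocytosis genes of the list, which recover vesicle membrane (Dnm1, Sh3gl2, Snap91, Amph and Synj1), were higher in CA3.

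**Figure D2:**
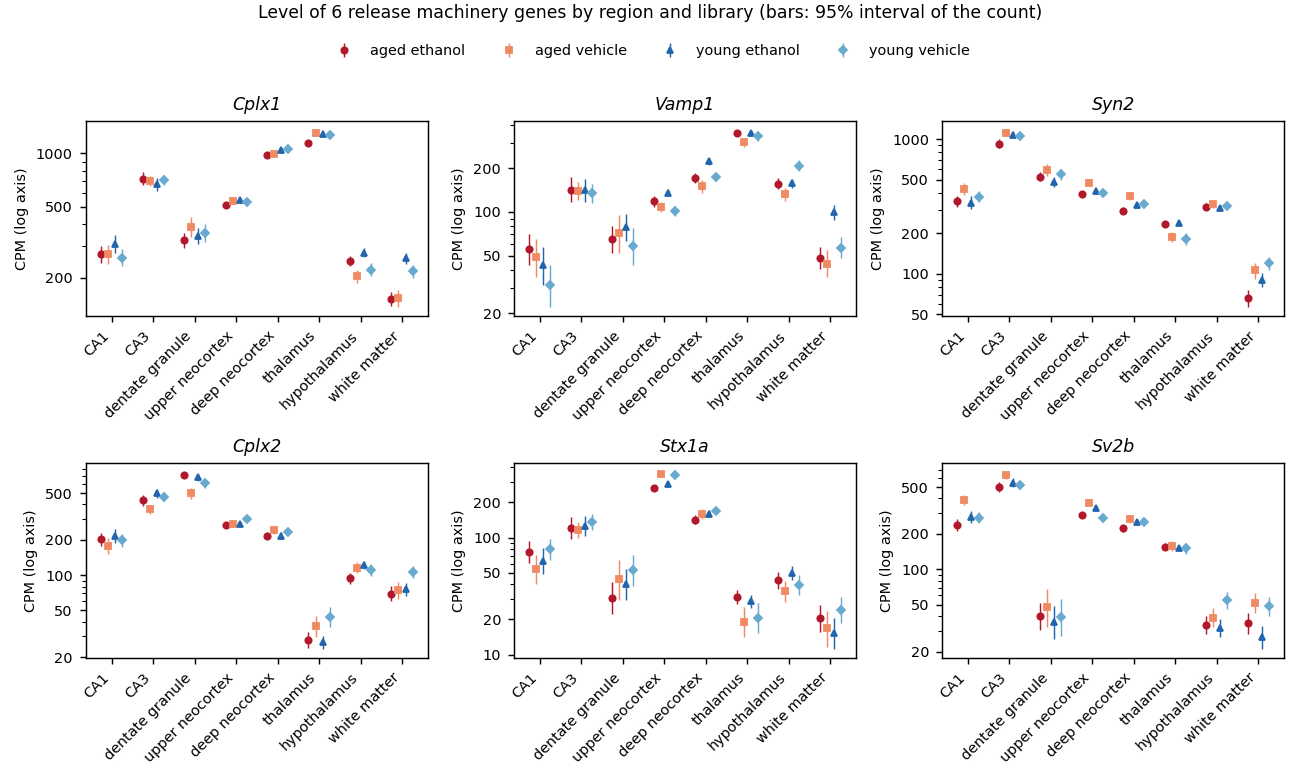
CPM on a log axis of 6 of the genes (panels) in 8 regions, with 1 point per library and the exact 95% interval of its count. The 4 libraries of a region mostly sit together, and Cplx1 and Vamp1 are high in thalamus where Cplx2 and Stx1a are low.

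Spots of the dentate granule layer, whose mossy fibre axons end on CA3, differed from CA1 in both directions. Of the 10, Cplx2, Vamp1, Syn2 and Cplx1 were higher in dentate granule, Sv2b, Stx1a and Syp lower, and Syn1, Snap25 and Vamp2 were not called, where 19.6% of 4741 genes were higher and 20.2% lower. Cplx2, the complexin of many excitatory forebrain neurons, had 710, 499, 683 and 606 CPM in dentate granule, against 202, 178, 217 and 200 CPM in CA1. Its lowest dentate granule library was above its highest CA1 library, with a log2 ratio of 1.57 ± 0.072 (SE). Sv2b had 40.1, 47.7, 35.6 and 39.5 CPM in dentate granule, against 239, 388, 277 and 274 CPM in CA1, a log2 ratio of -2.90 ± 0.11. These 2 genes were the ones past 2-fold in each library, which held for 3.01% of genes on the higher side and 2.84% on the lower. Stx1a was lower, at -0.84 ± 0.15, and Vamp1 (0.52 ± 0.14), Syn2 (0.46 ± 0.066) and Cplx1 (0.25 ± 0.075) were higher. The calls of Cplx1 (adjusted p = 0.00710 by edgeR) and Syp (0.0468 by edgeR) were lost under several alternatives, that of Syp among them under scaling by library totals (adjusted p = 0.335 by edgeR). That scaling put 59.9% of called genes on the higher side in place of 49.2%. With DESeq2, 4 of the 10 were called.

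The neuron list was slightly lower in dentate granule, at 3688 to 3790 CPM, against 4102 to 4315 CPM in CA1. Relative to it, 7 of the 10 genes were above in all 4 libraries, Syp (0.10 ± 0.05, SD), Snap25 (0.30 ± 0.11) and Vamp2 (0.13 ± 0.06) among them, Sv2b and Stx1a were below in all 4, and Syn1 went both ways. White matter markers were higher in dentate granule, at 1492 to 1940 CPM, against 914 to 1411 CPM in CA1. Their part in these results was not tested. Of the other presynaptic genes, 35 were tested, 11 were higher, 11 lower and 13 not called, with a median log2 ratio of 0.07, against 0.02 over all genes and -0.02 over the 10. The highest were Synpr (3.54 ± 0.11), Sv2c (2.85 ± 0.26) and Rph3a (2.73 ± 0.11). The lowest were Rab3c (-1.40 ± 0.11), Synj1 (-0.60 ± 0.076), a phosphatase of vesicle uncoating, and Pclo (-0.54 ± 0.10), the active zone scaffold piccolo. Synpr averaged 405 ± 29 CPM in dentate granule and 33.6 ± 10.8 CPM in CA1, and Sv2c, a relative of Sv2b, averaged 40.9 ± 14.7 CPM in dentate granule and 5.10 ± 2.44 CPM in CA1.

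Set against CA3, dentate granule was lower in 9 of the 10 genes and higher in Cplx2, where 22.6% of 4562 genes were higher and 23.4% lower. Cplx2 had 710, 499, 683 and 606 CPM in dentate granule, against 435, 366, 497 and 467 CPM in CA3, a log2 ratio of 0.34 ± 0.070 (SE). The regions did not overlap, although the lowest dentate granule library and the highest CA3 library were close. Sv2b differed most (-3.90 ± 0.10), and Sv2b, Snap25 (-1.33 ± 0.066) and Stx1a (-1.75 ± 0.13) were at least 2-fold lower in each library, as were 2.06% of genes, while 3.8% were at least 2-fold higher in each. Vamp1 (-1.18 ± 0.12), Cplx1 (-1.15 ± 0.071), Syn2 (-1.11 ± 0.067), Syn1 (-0.90 ± 0.071) and Syp (-0.74 ± 0.071) lay between, and Vamp2 was the least changed of the 9, at -0.47 ± 0.065. The neuron list was lower too, at 3688 to 3790 CPM in dentate granule, against 6174 to 6406 CPM in CA3, a mean log2 ratio of -0.76. Relative to it, Cplx2 (1.26 ± 0.15, SD), Vamp2 (0.44 ± 0.03) and Syp (0.17 ± 0.11) were above in all 4 libraries. Scaling by library totals alone moved the median of all genes to 0.17 and the share of called genes on the higher side to 65.7% in place of 49.1%, and left the 10 calls in place. Of 35 other presynaptic genes tested, 8 were higher, 19 lower and 8 not called. The highest were Doc2b (3.87 ± 0.26), Sv2c (3.78 ± 0.35) and Synpr (1.32 ± 0.085). The lowest were 2 endocytosis genes, Sh3gl2 (-1.50 ± 0.074), which encodes endophilin A1, and Synj1 (-1.29 ± 0.076), with the vesicle protein gene Syngr1 (-1.32 ± 0.085) between them.

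In the thalamus the complexins and the VAMPs parted. Cplx1, the complexin of many fast-firing neurons, had 1149, 1305, 1279 and 1263 CPM in thalamus, against 514, 536, 545 and 530 CPM in upper and 974, 987, 1040 and 1053 CPM in deep neocortex. Cplx2 had 28.1, 36.8, 26.7 and 44.2 CPM in thalamus, against 265, 272, 273 and 300 CPM in upper and 217, 244, 218 and 232 CPM in deep neocortex. Neither gene's thalamus libraries overlapped those of neocortex. Against neocortex, the sum of upper and deep, the log2 ratio was 0.83 ± 0.067 (SE) for Cplx1 and -2.96 ± 0.094 for Cplx2 (adjusted p = 3.76e-08 and 6.54e-13 by edgeR). Vamp1, the vesicle SNARE of many brainstem and spinal neurons, had 351, 301, 349 and 332 CPM in thalamus, against 118, 108, 136 and 101 CPM in upper and 171, 151, 224 and 175 CPM in deep neocortex, a log2 ratio of 1.28 ± 0.067. Stx1a had 31.2, 19.2, 28.7 and 20.8 CPM in thalamus, against 267, 346, 286 and 340 CPM in upper and 143, 160, 160 and 170 CPM in deep neocortex, a log2 ratio of -3.18 ± 0.12.

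Of the 10 genes, 3 (Cplx1, Vamp1 and Syp) were higher in thalamus and 6 lower, where 27.3% of 6706 genes were higher and 27.9% lower. Vamp2 was not called (-0.14 ± 0.063, adjusted p = 0.0670 by edgeR). Vamp1 was at least 2-fold higher and Cplx2 and Stx1a at least 2-fold lower in each library, as were 4.55% and 6.39% of genes. Sv2b (-0.86 ± 0.066), Syn2 (-0.82 ± 0.088), Snap25 (-0.33 ± 0.066) and Syn1 (-0.29 ± 0.068) were lower by less. Syp was higher by 0.23 ± 0.078 (adjusted p = 0.0225 by edgeR), a call that was lost without the young ethanol library, where it read 601 CPM in thalamus (log2 ratio 0.12, adjusted p = 0.206 by edgeR). The neuron list was higher in thalamus, at 5408 to 6337 CPM, against 4032 to 4542 CPM in neocortex. Relative to it, Cplx1 (0.39 ± 0.20, SD) and Vamp1 (0.84 ± 0.24) were above in all 4 libraries and the other 8 genes below in all 4. The list of excitatory neuron markers (Slc17a7, Slc17a6, Camk2a and Nrgn, all detected) was at 983 to 1028 CPM in thalamus, against 4072 to 4881 CPM in neocortex. That of interneuron markers was at 183 to 526 CPM in thalamus (Vip at 0 in the young vehicle library), against 1292 to 1562 CPM in neocortex. White matter markers were at 7534 to 11224 CPM in thalamus, against 2427 to 2903 CPM in neocortex. The part of these lists in the differences was not tested.

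Other presynaptic genes split in the thalamus as well: all 39 were tested, 8 were higher, 21 lower and 10 not called, with a median log2 ratio of -0.18, against -0.00 over all genes and -0.31 over the 10. Of 9 active zone genes, 8 were lower and 1, Rims2 (0.92 ± 0.068), a scaffold of calcium channels, was higher. Rab3c (1.63 ± 0.084), the vesicle GTPase, and Syt7 (1.04 ± 0.064), a slow calcium sensor, were the other 2 highest. Doc2a (-3.86 ± 0.14), a calcium sensor, Synpr (-3.06 ± 0.14) and Sv2c (-2.86 ± 0.20) were the lowest. Rab3c averaged 415 ± 74 CPM in thalamus, 126 ± 17 CPM in upper and 155 ± 17 CPM in deep neocortex.

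**Figure D3:**
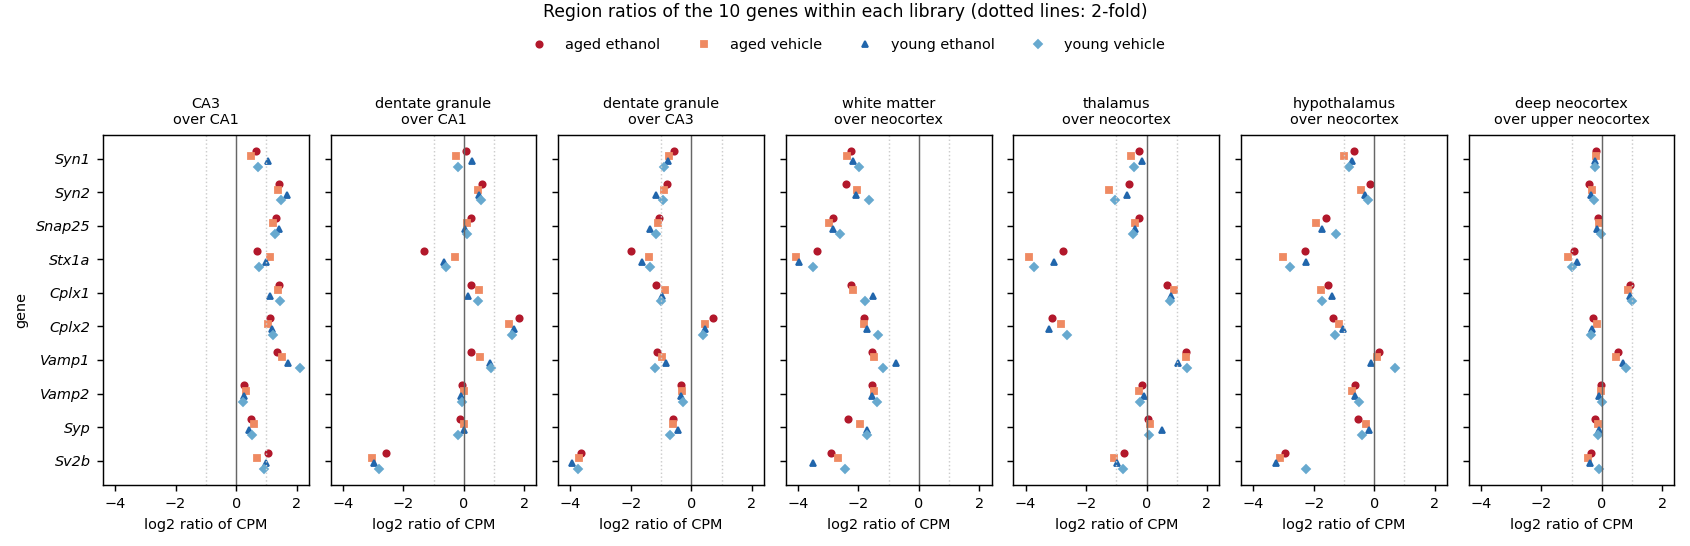
Log2 ratio of CPM between regions within each library for the 10 genes (rows), in 7 panels of 1 comparison each; the solid line is 0 and dotted lines are 2-fold. In CA3 over CA1 all points lie right of 0, in white matter over neocortex all lie left, and in thalamus over neocortex Cplx1 and Vamp1 lie right while Cplx2 and Stx1a lie beyond 2-fold to the left.

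The paralog shares put these splits on 1 scale. Cplx1 made up 97.4% ± 0.57 of the UMIs of Cplx1 and Cplx2 together in thalamus, 81.6% ± 1.1 in deep neocortex, 70.0% ± 4.8 in white matter, 68.0% ± 3.7 in hypothalamus, 65.7% ± 1.3 in upper neocortex, 61.5% ± 3.4 in CA3, 58.2% ± 1.7 in CA1 and 36.3% ± 5.3 in dentate granule (SD, n = 4 libraries). Dentate granule had the lowest share of Cplx1 and thalamus the highest in each of the 4 libraries. The share of Vamp1 in Vamp1 and Vamp2 was 27.8% ± 2.4 in thalamus, 20.4% ± 2.6 in hypothalamus, 15.7% ± 2.5 in deep neocortex, 15% ± 5.0 in white matter, 11.1% ± 0.49 in CA3, 10.5% ± 1.4 in upper neocortex, 7.08% ± 0.96 in dentate granule and 4.59% ± 1.17 in CA1. The share of Syn1 in Syn1 and Syn2 was 61.7% ± 2.4 in thalamus and 37.4% ± 2.7 in CA3, with the other 6 regions at 40.9% to 53.9% on average. As capture differs between genes these are shares of UMIs, and only their differences between regions are read.

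The difference in log2 ratio between the members of a pair was computed for 3 pairs in 7 comparisons, and 18 of these 21 differences had the same sign in all 4 libraries. In thalamus over neocortex it was 3.81, 3.76, 4.05 and 3.39 for Cplx1 minus Cplx2, 1.47, 1.56, 1.12 and 1.57 for Vamp1 minus Vamp2, and 0.33, 0.72, 0.51 and 0.61 for Syn1 minus Syn2. In CA3 over CA1 it was 1.11, 1.20, 1.45 and 1.88 for Vamp1 minus Vamp2 and -0.77, -0.89, -0.64 and -0.77 for Syn1 minus Syn2, so Vamp1 and Syn2 were the relatives that differed more. With 4 libraries an exact two-sided sign-flip permutation test cannot give a p below 0.125, and it gave that value wherever all 4 signs matched (adjusted p = 0.146 over the 21 by the exact permutation test). The difference between complexins in CA3 over CA1 had an exact permutation p of 0.25, with 3 of 4 libraries positive and a mean of 0.20 ± 0.19 (SD).

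**Figure D4:**
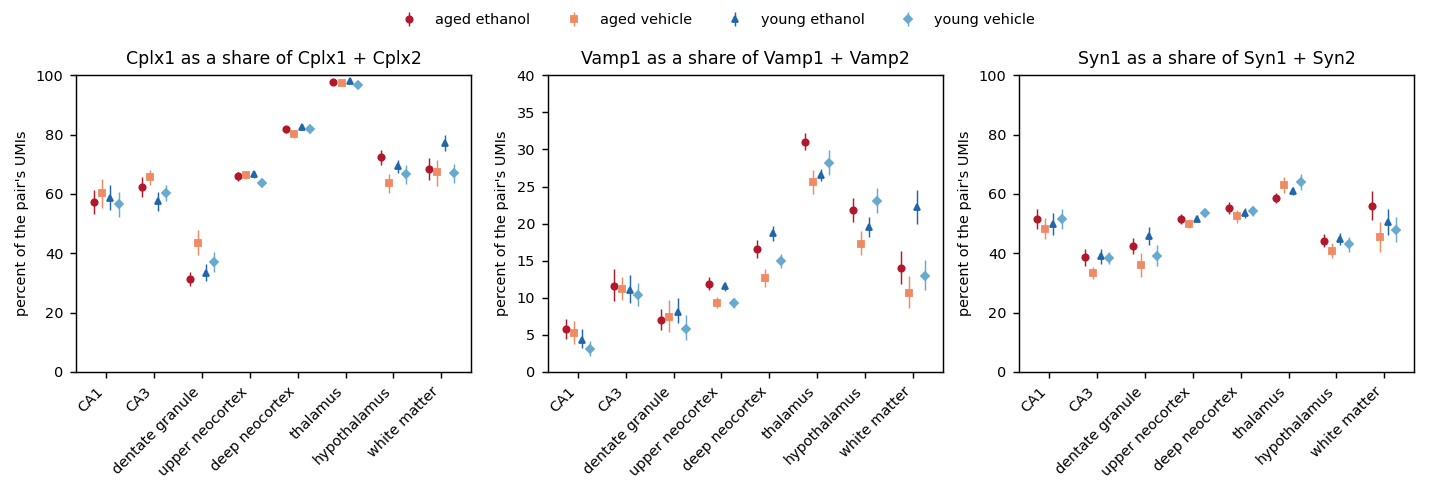
Percent of a pair's UMIs from Cplx1, Vamp1 or Syn1 (panels; the axis of the Vamp1 panel ends at 40%) in 8 regions, with 1 point per library and its exact Clopper-Pearson 95% interval. Cplx1 exceeds 96% in all 4 libraries of thalamus and is under 44% in all 4 of dentate granule.

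Within neocortex, Cplx1 and Vamp1 were again the 2 genes higher in the deep neocortex group, and Stx1a the one most reduced. Cplx1 had 974, 987, 1040 and 1053 CPM in deep neocortex, against 514, 536, 545 and 530 CPM in upper neocortex, a log2 ratio of 0.99 ± 0.043 (SE). Vamp1 had 171, 151, 224 and 175 CPM in deep neocortex, against 118, 108, 136 and 101 CPM in upper neocortex, a log2 ratio of 0.71 ± 0.054. Stx1a had 143, 160, 160 and 170 CPM in deep neocortex, against 267, 346, 286 and 340 CPM in upper neocortex, a log2 ratio of -0.90 ± 0.052. These 3 kept their direction and their call under every alternative run, and in none of them did upper and deep libraries overlap. Syn2 (-0.27 ± 0.044), Sv2b (-0.27 ± 0.049), Cplx2 (-0.23 ± 0.049) and Syn1 (-0.15 ± 0.044) were lower by less, while Snap25, Vamp2 and Syp were not called. Of 6244 genes, 16.3% were higher and 15.4% lower in deep neocortex. None of the 10 was at least 2-fold different in each library, as 0.523% of genes were on the higher side and 0.557% on the lower. The small differences depended on which spots were called deep. With spots of at least 2000 UMIs, 404 of the 835 spots called deep were in the deep group used here, and that grouping gave positive log2 ratios for Syn1 (0.26), Snap25 (0.27), Syp (0.16) and Sv2b (0.11). At Leiden resolution 0.6 the log2 ratio of Syn2 turned to 0.096 (adjusted p = 0.121 by edgeR), and Syn1 and Sv2b were not called (adjusted p = 0.851 and 0.811 by edgeR). Scaling by library totals put 36.8% of called genes on the higher side in place of 51.5%. A group led by Ccn2, a layer 6b marker, and Trbc2 had no region name and was not part of deep neocortex. It averaged 459 ± 30 CPM for Cplx1, 65.1 ± 7.3 for Vamp1 and 211 ± 20 for Stx1a (SD). These lay below the upper neocortex means of 531, 116 and 310 CPM. Cplx2 averaged 361 ± 22 CPM there, above 278 ± 15 in upper neocortex.

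The other presynaptic genes of the neocortex showed the active zone group on 1 side. In it, 8 of 9 genes were lower in deep neocortex, led by Erc2 (-0.83 ± 0.071), Unc13b (-0.70 ± 0.10) and Rimbp2 (-0.65 ± 0.078), which encode scaffold, priming and calcium channel binding proteins. Over all roles, 38 of 39 were tested, with 10 higher, 11 lower and 17 not called. The highest were Syt2 (1.34 ± 0.075), the fast calcium sensor of many brainstem and inhibitory terminals, Sv2c (1.11 ± 0.12) and Rab3c (0.36 ± 0.052). The neuron list was at 4216 to 4776 CPM in deep neocortex, against 3890 to 4422 CPM in upper neocortex, and relative to it Cplx1 and Vamp1 were above and the other 8 genes below in all 4 libraries. Interneuron markers were higher in deep neocortex, at 1412 to 1880 CPM, against 1199 to 1380 CPM in upper neocortex. White matter markers were higher too, at 3942 to 4089 CPM, against 1609 to 2053 CPM in upper neocortex. The part of both lists in these results was not tested.

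The neuron list was at 4137 to 4744 CPM in hypothalamus, against 4032 to 4542 CPM in neocortex. In the hypothalamus 9 of the 10 genes were lower and Vamp1 was not called, where 26.8% of 6543 genes were higher and 27.5% lower. Sv2b had 33.8, 38.9, 31.9 and 54.6 CPM in hypothalamus, against 224 to 366 CPM over the libraries of upper and deep neocortex, a log2 ratio of -2.89 ± 0.12 (SE). Stx1a (-2.57 ± 0.11), Snap25 (-1.64 ± 0.085), Cplx1 (-1.61 ± 0.079) and Cplx2 (-1.23 ± 0.080) followed. With Sv2b, these 5 were at least 2-fold lower in each library, as were 5.22% of genes, with 3.58% at least 2-fold higher. Syn1 (-0.82 ± 0.071), Vamp2 (-0.64 ± 0.065), Syp (-0.35 ± 0.080) and Syn2 (-0.29 ± 0.065) differed by less. Vamp1 had 157, 132, 158 and 209 CPM in hypothalamus and a log2 ratio of 0.20 ± 0.093 (adjusted p = 0.0877 by edgeR). It passed the test without the young ethanol library (log2 ratio 0.28, adjusted p = 0.0413 by edgeR), with spots of at least 2000 UMIs (log2 ratio 0.49) and at Leiden resolution 0.6, a coarser grouping (log2 ratio 1.04). At that resolution the hypothalamus held 1777 spots, of which 828 were among the 897 used here, so it is not the same region. Without the young vehicle library the log2 ratio of Vamp1 was 0.050 (adjusted p = 0.619 by edgeR). Relative to the neuron list, 9 of the 10 genes were below in all 4 libraries and 1, Vamp1, went both ways. All 9 active zone genes of the other list were lower as well, among them Bsn (-2.00 ± 0.096) and Rims1 (-1.62 ± 0.12), a priming scaffold, and Cplx3 (-2.81 ± 0.31), a complexin, was the lowest. The highest were Doc2b (2.97 ± 0.13), Syn3 (1.19 ± 0.31), the third synapsin, and Sv2c (0.89 ± 0.21). Syn3 and Cplx3 had low counts. Syn3 averaged 3.21 ± 0.89 CPM in hypothalamus, 1.67 ± 0.15 in upper and 0.96 ± 0.95 in deep neocortex (SD). Cplx3 averaged 1.84 ± 1.39 CPM in hypothalamus, 13.1 ± 2.3 in upper and 9.49 ± 1.84 in deep neocortex. Over all roles, 8 of 39 were higher, 26 lower and 5 not called. Excitatory neuron markers were at 415 to 544 CPM in hypothalamus, against 4072 to 4881 CPM in neocortex. White matter markers were at 4874 to 6670 CPM in hypothalamus, against 2427 to 2903 CPM in neocortex. The part of both lists in these results was not tested.

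White matter, led by myelin genes, gave the level of the 10 genes in the region where the neuron list was lowest. Its neuron list stood at 1213 to 1666 CPM, against 4032 to 4542 CPM in neocortex, and its white matter markers at 38517 to 43961 CPM, against 2427 to 2903 CPM in neocortex. Its interneuron markers were less reduced, at 823, 781, 1808 and 1225 CPM, against 1199 to 1380 CPM in upper and 1412 to 1880 CPM in deep neocortex. The part of these lists in the results below was not tested. All 10 genes were lower in white matter, where 35.3% of 6488 genes were higher and 36.2% lower. Of the 10, 9 (not Vamp1) were at least 2-fold lower in each library, as were 14% of genes, with 9.13% at least 2-fold higher. The log2 ratio was largest in size for Stx1a (-3.52 ± 0.10, SE), Sv2b (-2.69 ± 0.11) and Snap25 (-2.64 ± 0.070), and smallest for Vamp1 (-1.03 ± 0.11) and Vamp2 (-1.32 ± 0.063). Syn1 (-2.01 ± 0.072), Syn2 (-1.86 ± 0.088), Syp (-1.74 ± 0.087), Cplx1 (-1.73 ± 0.097) and Cplx2 (-1.50 ± 0.076) lay between. Relative to the neuron list, Vamp1 was above in all 4 libraries (0.31 ± 0.20, SD), 7 genes were below in all 4, and Vamp2 and Cplx2 went both ways. Scaling by library totals moved the median of all genes to -0.18, and all 10 genes were lower there too. Of 38 other presynaptic genes tested, 33 were lower, 4 higher and 1 not called. The highest were Vamp3 (2.43 ± 0.082) and Snap23 (2.04 ± 0.15), relatives of Vamp2 and Snap25 that serve membrane traffic in many cell types, and Doc2b (0.88 ± 0.23). The lowest were Bsn (-2.60 ± 0.088), Doc2a (-2.54 ± 0.14) and Rimbp2 (-2.35 ± 0.13). Vamp3 averaged 98.3 ± 16.1 CPM in white matter, 19.7 ± 3.3 CPM in upper and 21.4 ± 1.5 CPM in deep neocortex.

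Over the 19 groups of spots with at least 20 spots in each library, the 10 genes were compared by the Pearson r of log2(CPM + 1) averaged over libraries, a description in which points share libraries and depth. Vamp2 and Syn1 were closest (r = 0.987), and each was the other's most alike gene among 9474 genes of at least 10 CPM. Syp with Syn1 (0.966) and Syp with Vamp2 (0.96) came next. The r was below 0 but weak for Vamp1 with Cplx2 (-0.40), Stx1a (-0.31), Sv2b (-0.22) and Syn2 (-0.15), and for Cplx1 with Cplx2 (-0.09). That of Vamp1 with Vamp2 was near 0 (-0.0091). The most alike genes were Vamp2 and Atp6v1c1 (0.981) for Syn1, Syn1 and Aak1 (0.972) for Vamp2, Napg (0.984) and Pacsin1 (0.979) for Syp, Rab6b (0.957) and Smim13 (0.947) for Snap25, and Atp6v1a (0.944) and Slc25a22 (0.933) for Syn2. They were Slc39a10 (0.95) for Stx1a, Lingo1 (0.917) and Khdrbs3 (0.916) for Sv2b, Trnp1 (0.893) and Atp5b (0.877) for Cplx1, Ryr2 (0.875) and Ano3 (0.871) for Cplx2, and Nefh (0.916) and Slc7a10 (0.871) for Vamp1.

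Ethanol and vehicle were compared within each age as a ratio of CPM with an exact 95% interval, which covers counting error only: with 1 library on each side there is no replicate and no p. A difference of size needed a ratio of at least 2-fold and 50 UMIs in the library with more. None of the 80 pairs of gene and region passed it in aged mice and none in young mice, where 1.15% of gene and region pairs passed in aged mice and 1.06% in young mice over all genes. Over the whole section none of the 10 passed either, against 1.68% of genes in aged mice and 2.19% in young mice. The ratios furthest from 1 in aged mice were those of Stx1a in thalamus, with 31.2 CPM in the ethanol library and 19.2 CPM in the vehicle library (log2 ratio 0.70, 95% interval 0.23 to 1.19), and Sv2b in CA1. Sv2b had 239 CPM in the ethanol library and 388 CPM in the vehicle library of aged CA1 (-0.70, interval -0.93 to -0.48). In young mice they were Sv2b in white matter, with 26.5 CPM in the ethanol library and 48.4 CPM in the vehicle library (-0.87, interval -1.29 to -0.45), and Vamp1 in white matter. Vamp1 had 99.3 CPM in the ethanol library and 56.9 CPM in the vehicle library (0.80, interval 0.51 to 1.10).

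Some ratios ran the same way at both ages. The markers of other cells also differed between these libraries, and their part in the ratios was not tested. In thalamus, Syn2 was higher with ethanol at both ages (235 CPM with ethanol and 187 CPM with vehicle in aged mice, 240 CPM with ethanol and 181 CPM with vehicle in young mice), as was Stx1a. Cplx2 was lower in thalamus at both ages (28.1 CPM with ethanol and 36.8 CPM with vehicle in aged mice, 26.7 CPM with ethanol and 44.2 CPM with vehicle in young mice). Interneuron markers in thalamus were at 507 and 526 CPM in the aged and young ethanol libraries, against 212 and 183 CPM in the aged and young vehicle libraries. White matter markers there were at 7534 and 7626 CPM with ethanol, against 11224 and 11210 CPM with vehicle, in the aged and young libraries. In dentate granule, Cplx2 was higher with ethanol at both ages (log2 ratio 0.51 in aged and 0.17 in young mice). In white matter, Syn2, Vamp2 and Sv2b were lower at both ages, in hypothalamus Cplx1 was higher and Vamp2 lower, in deep neocortex Vamp1 was higher, and in upper neocortex Stx1a was lower. Microglia markers in white matter were at 1043 and 1379 CPM in the aged and young ethanol libraries, against 621 and 596 CPM in the aged and young vehicle libraries. Interneuron markers in hypothalamus were at 1129 and 1433 CPM with ethanol, against 962 and 545 CPM with vehicle, in the aged and young libraries. Over 80 pairs of gene and region, these 11 were the ones with both intervals on the same side of 0 and intervals lay on opposite sides in 8. Over the whole section, Snap25, Cplx1 and Vamp1 were higher with ethanol at both ages (log2 ratios 0.05, 0.15 and 0.09 in aged and 0.25, 0.34 and 0.39 in young mice), and Syn1, Syn2, Stx1a and Cplx2 were lower. Syp was at -0.028 in aged and 0.15 in young mice. Thalamus, where Cplx1 and Vamp1 are high and Syn2, Stx1a and Cplx2 low, made up 18.0% and 16.3% of spots with ethanol, against 7.73% and 7.25% with vehicle. Gavage and the share of thalamus spots cannot be told apart over the whole section. When each region counted equally, Vamp1 stayed above 0 (log2 ratio 0.12 in aged and 0.28 in young mice) and Syn2 below 0 (-0.22 in aged and -0.04 in young mice), as did Cplx2 (-0.0051 in aged and -0.12 in young mice) and Syn1 (-0.0075 in aged and -0.0097 in young mice). The sign of the other 3 turned in aged mice: the log2 ratio of Cplx1 was -0.02 in aged and 0.09 in young mice, that of Snap25 -0.01 in aged and 0.09 in young mice, and that of Stx1a 0.10 in aged and -0.13 in young mice. The sign of Cplx2 over the whole section of aged mice also turned, to 0.01, with median-of-ratios size factors.

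**Figure D5:**
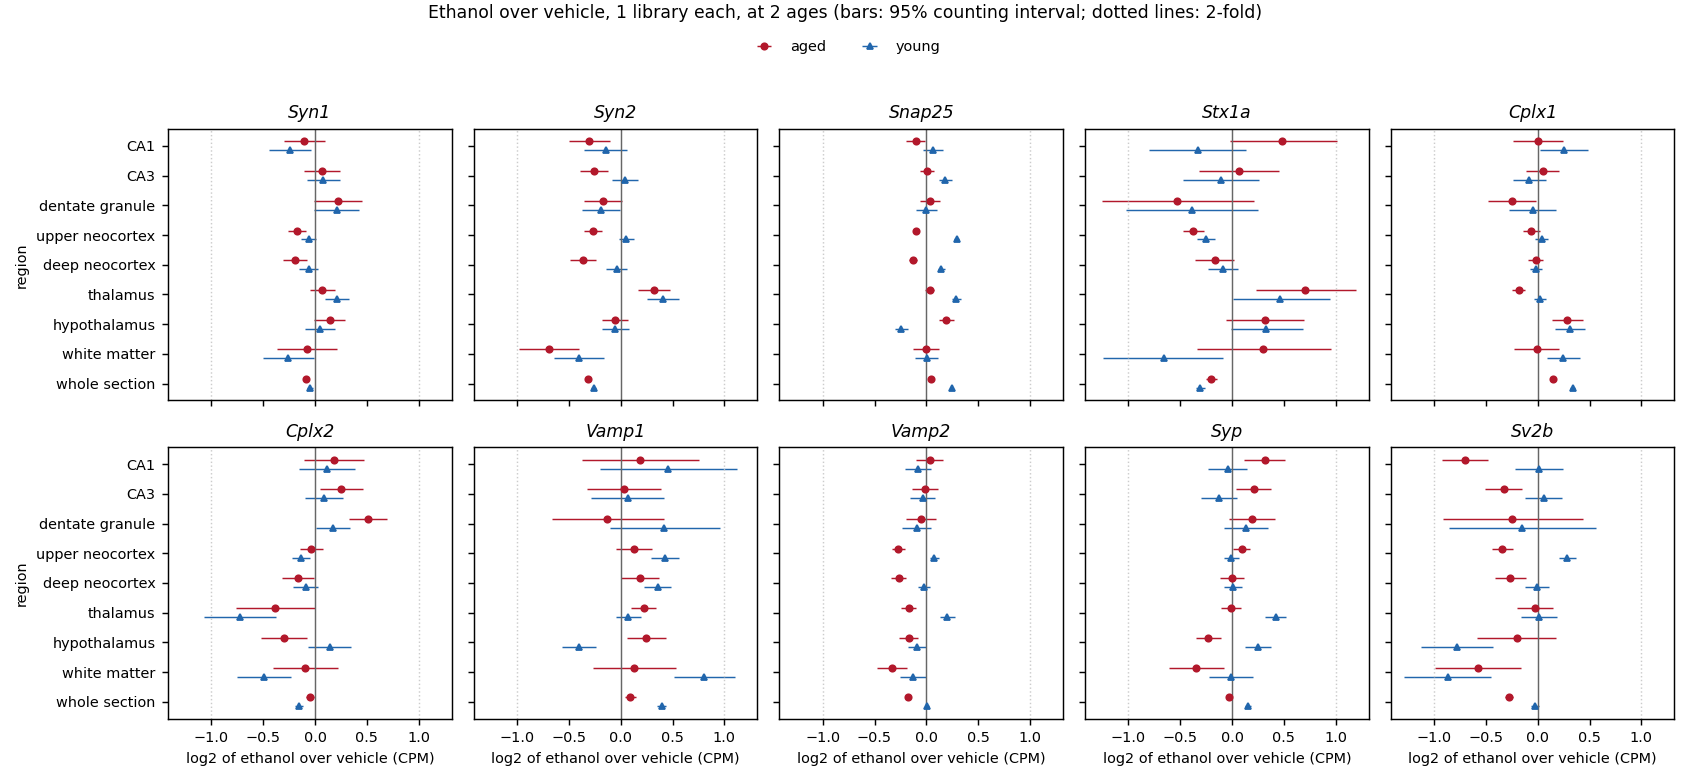
Log2 ratio of CPM, ethanol over vehicle, of the 10 genes (panels) in 8 regions and the whole section, in aged (upper marker) and young mice (lower marker), 1 library on each side, with exact 95% counting intervals; dotted lines are 2-fold. No point passes a dotted line, and whole-section points of Cplx1 and Vamp1 lie right of 0 at both ages while those of Syn2 and Stx1a lie left.

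Aged and young libraries differed by as little. Of 80 pairs of gene and region, 1 passed 2-fold with ethanol and none with vehicle, where 0.535% and 0.392% of gene and region pairs passed over all genes. The 1 was Vamp1 in white matter, with 48.2 CPM (135 UMIs) in the aged ethanol library and 99.3 CPM (292 UMIs) in the young ethanol library. Its log2 ratio was -1.04, with a 95% interval of -1.35 to -0.74. In the vehicle libraries Vamp1 in white matter had 44.2 CPM in the aged and 56.9 CPM in the young, so the young ethanol library stood apart. Interneuron markers in white matter were at 823 CPM in the aged and 1808 CPM in the young ethanol library, against 781 CPM in the aged and 1225 CPM in the young vehicle library, and their part in this result was not tested. With median-of-ratios size factors the pair no longer passed. Over the whole section none of the 10 passed, against 0.492% of genes with ethanol and 0.357% with vehicle. Cplx1 was lower in aged mice with both gavages (517 CPM aged and 615 CPM young with ethanol, 466 CPM aged and 487 CPM young with vehicle). Syn2 was higher with both (380 CPM aged and 359 CPM young with ethanol, 474 CPM aged and 431 CPM young with vehicle). With each region counted equally its log2 ratio was -0.09 with ethanol and 0.09 with vehicle. Over the whole section the aged over young log2 ratio was -0.019 with ethanol and -0.12 with vehicle for Stx1a, 0.040 with ethanol and -0.065 with vehicle for Cplx2, -0.062 with ethanol and 0.12 with vehicle for Syp, and -0.10 with ethanol and 0.15 with vehicle for Sv2b. In regions, Vamp1 in deep neocortex was lower in aged mice with both gavages (171 CPM aged and 224 CPM young with ethanol, 151 CPM aged and 175 CPM young with vehicle). So was Cplx1 in white matter (152 CPM aged and 257 CPM young with ethanol, 153 CPM aged and 217 CPM young with vehicle). Snap25 in dentate granule was higher in aged mice with both gavages (1968 CPM aged and 1661 CPM young with ethanol, 1924 CPM aged and 1664 CPM young with vehicle), and Syn1 in CA3, Cplx1 in deep neocortex, Vamp2 in hypothalamus and Snap25 in white matter were lower. Intervals lay on the same side of 0 with both gavages in these 7 of the 80 pairs and on opposite sides in 7. Of the 320 intervals over regions and all 4 comparisons, 136 did not include 0, at library depths where counting error is small and the spread between animals is not measured. Shares over all genes were not computed for these counts, so they are not read as particular to the 10.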

How the data were processed

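Visium libraries of 4 mouse brain sections were analysed. The authors deposited UMI counts of reads per gene and spot, not normalized; the matrix header names Space Ranger 1.3.1, and the submitters' processing notes name Space Ranger 2.0.0 and mm10. Spots with at least 500 UMIs were kept, scaled to 10000, log-transformed and clustered (scanpy 1.11.5, 1598 features, 30 principal components, 15 neighbours, Leiden resolution 1, leidenalg 0.10.2), without the 10 genes, the other presynaptic genes or the cell type lists but with the region markers, which include the white matter markers, and no doublet caller was run. Clusters were named by their marker lists, with the naming settled after the clusters were seen; p-values apply to genes not used in clustering. Counts were summed per library and region and tested with edgeR 4.0.16 (quasi-likelihood, TMM, filterByExpr, library as a block, Benjamini-Hochberg over all genes tested, threshold 0.05). In CA3 against CA1 and in dentate granule against CA3 edgeR estimated infinite prior degrees of freedom, so the standard errors and p-values there rest on a spread shared by all genes. A second call needed 2-fold in each of 4 libraries and 20 UMIs. Pairs of libraries were compared as CPM ratios with exact conditional binomial 95% intervals. The members and lists were chosen with earlier results of these data known. Text names all 10 genes in each comparison, and of 39 other presynaptic genes the 3 highest and 3 lowest by mean log2 ratio in each region comparison. Each gene's 2 most alike genes were taken over clusters with at least 20 spots in each library. For Stx1a 1 of them is not reported here. Alternatives were library totals, DESeq2 1.42.0, no low-count filter, no mitochondrial genes in the total, at least 2000 UMIs per spot, Leiden resolution 0.6, a 1.5-fold limit and leaving out each library. The test script was tested on simulated data. Other software was Python 3.11.15, scipy 1.17.1 and R 4.3.3.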

Additional observations from a re-analysis of the deposited data

Results flagged for a closer look

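With 1 library on each side, no difference between ages or gavages was tested; the values here are log2 ratios of CPM whose counting intervals lay on opposite sides of 0. The ethanol over vehicle ratio ran one way in aged mice and the other way in young mice for 8 pairs of gene and region. It was -0.10 in aged and 0.29 in young mice for Snap25 in upper neocortex, -0.27 in aged and 0.08 in young mice for Vamp2 in upper neocortex, and -0.34 in aged and 0.29 in young mice for Sv2b in upper neocortex. In deep neocortex it was -0.13 in aged and 0.15 in young mice for Snap25, and in thalamus -0.17 in aged and 0.20 in young mice for Vamp2. In hypothalamus it was 0.19 in aged and -0.24 in young mice for Snap25, 0.25 in aged and -0.40 in young mice for Vamp1, and -0.23 in aged and 0.25 in young mice for Syp.

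The aged over young ratio ran one way with ethanol and the other way with vehicle for 7 pairs of gene and region and for 4 genes over the whole section. In upper neocortex it was -0.19 with ethanol and 0.20 with vehicle for Snap25, -0.26 with ethanol and 0.09 with vehicle for Vamp2, and -0.20 with ethanol and 0.43 with vehicle for Sv2b. In deep neocortex it was -0.14 with ethanol and 0.18 with vehicle for Syn2, -0.15 with ethanol and 0.13 with vehicle for Snap25, and -0.17 with ethanol and 0.07 with vehicle for Vamp2. In hypothalamus it was -0.25 with ethanol and 0.23 with vehicle for Syp. Over the whole section it was -0.15 with ethanol and 0.05 with vehicle for Snap25, 0.040 with ethanol and -0.065 with vehicle for Cplx2, -0.062 with ethanol and 0.12 with vehicle for Syp, and -0.10 with ethanol and 0.15 with vehicle for Sv2b. Both sets draw on the same 4 libraries, so a library that is high or low for a gene enters both. Such opposite intervals were not counted over all genes.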

How the results depend on the processing

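All 10 genes stayed called in CA3 against CA1, in dentate granule against CA3 and in white matter against neocortex when any library was left out. Leaving out each library in turn gave 5 to 7 called genes of the 10 in dentate granule against CA1 (7 with all libraries), 8 to 9 in thalamus (9), 9 to 10 in hypothalamus (9) and 6 to 7 in deep against upper neocortex (7). DESeq2 called 4 of the 10 (2 higher and 2 lower) in dentate granule against CA1. Over all genes, DESeq2 called 745 against 1557 by edgeR in CA3 against CA1, 978 against 1887 in dentate granule against CA1, 1191 against 2102 in dentate granule against CA3 and 1022 against 1976 in deep against upper neocortex. At least 2000 UMIs per spot turned the log2 ratio of Syn1 in dentate granule against CA1 to 0.045 and, in deep against upper neocortex, those of Syn1 to 0.26, Snap25 to 0.27, Syp to 0.16 and Sv2b to 0.11. Leiden resolution 0.6 gave no CA3 region and so no value there; it called 4 of the 10 in deep against upper neocortex and turned Syn2 to 0.096 and Syp to 0.044, the difference of Cplx1 minus Cplx2 in hypothalamus to 0.15 and that of Syn1 minus Syn2 in deep against upper neocortex to -0.11. Its hypothalamus held 1777 spots in place of 897, and Vamp1 there passed the test at a log2 ratio of 1.04. Library totals alone turned Vamp2 in deep against upper neocortex, not called, to -0.035. Past 2-fold, ethanol against vehicle in aged mice gave 1 pair at resolution 0.6. With a 1.5-fold limit there were 3 for ethanol in aged and 5 in young mice, and 2 with ethanol and 1 with vehicle for aged against young mice. Aged against young with ethanol gave 0 with median-of-ratios size factors. Shares over all genes were not computed under these settings, so these counts are not read as particular to the 10. For other changes the cause was not tested. No paired analysis was possible because each pairing of age with gavage has 1 library; the region fits already hold library as a block. Regions of 23 to 44 spots limit precision for low genes.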

Other observations

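High levels of Syn2 and Cplx2 were also found in groups of spots outside the 8 named regions, to which no region name was given. Syn2 averaged 987 ± 150 CPM in the group led by Lypd1 and Cyp26b1, next to 1045 ± 81 CPM in CA3. Cplx2 averaged 472 ± 6.1 CPM in the group led by Igfn1 and Tafa2, with 468, 480, 475 and 467 CPM in the 4 libraries.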
